A study of Mus musculus with 2 samples.

Results

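The enteroendocrine hormone genes of the embryonic mouse intestine were taken as a list of 10 genes out of 43346 Ensembl genes in the deposited tables. They comprise 9 peptide hormone genes (Sct, Ghrl, Pyy, Gcg, Cck, Sst, Gip, Nts and Gast) and Tph1, which makes the first enzyme of serotonin synthesis. Each was found by its Ensembl identifier without version, matched to a mouse GENCODE symbol, and all 10 were present in the gene and the transcript tables. Expression was measured by total RNA sequencing of intestine tissue at embryonic day 15.5 (E15.5) from strain B6NCrl, in 2 libraries that form 1 group. Replicate 1 was a pool of 78 healthy embryos and replicate 2 a separate pool of 62, each of both sexes and with no treatment or altered allele named in the labels. Pooling averages over embryos, and the source label names intestine tissue without a segment. Values for single embryos or gut segments were therefore not analysed here.

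Enteroendocrine cells are scattered hormone-secreting cells of the gut epithelium that sense the gut contents and signal to the pancreas, gallbladder, brain and gut muscle. They arise from epithelial progenitors that switch on the transcription factor Neurog3. Most gut hormones are made as longer precursors, cut by prohormone convertases and stored in granules. Several of the same genes are also active outside the gut epithelium: Gcg, Sst, Ghrl and Pyy in islet cells of the pancreas, Ghrl, Gast and Sst in the stomach, Cck, Sst and Nts in neurons, and Tph1 in mast cells. In bulk tissue, fewer cells of a type and less RNA per cell cannot be told apart.

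Estimated counts came to 34406872 in replicate 1 and 40669822 in replicate 2, and 5569 and 5303 of them fell on the 10 hormone genes. For a transcript of 500 bases, 3 counts correspond to 0.250 TPM in replicate 1 and 0.215 TPM in replicate 2. TPM, the share of each gene among transcripts, divides counts by transcript length, so levels of different genes can be set side by side. All 12 listed epithelial markers (4613 and 4387 TPM in sum) and all 8 smooth muscle markers (4284 and 4307 TPM) reached 1 TPM in both libraries. Among them were Krt8, Lgals4, Acta2 and Actg2. Of all Ensembl genes, noncoding ones included, 34.6% reached it. Genes listed as markers of neighbouring organs were present too. The acinar pancreas list summed to 5769 TPM in replicate 1 and 2021 TPM in replicate 2, the islet list to 519.7 and 327 TPM, and the liver list to 751 and 531 TPM. All 3 sums were higher in replicate 1.

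Cholecystokinin and gastrin are related hormones that end in the same active peptide, which their shared receptor recognises. The stretch of coding sequence around it is shown for both sister genes. Both stretches are 45 bases long and lie in exon 3 of 3 on GRCm38 (GENCODE), Cck at chr9:121490098-121490142 on the minus strand and Gast at chr11:100336834-100336878 on the plus strand. Capitals mark the 12 bases that encode the last residues of the shared end of the hormones.
Cck: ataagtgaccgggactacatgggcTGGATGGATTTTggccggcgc
Gast: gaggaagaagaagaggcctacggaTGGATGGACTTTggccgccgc
The stretches were identical at 26 of 45 bases, and at 11 of the 12 bases in capitals. No 31-base word of a Cck or Gast transcript occurred in a transcript of another gene.

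Upstream sequence is shown to set side by side what the members share before their starts. The 50 bases before the RefSeq start (GRCm38.p6) are given for the 4 highest members and for Tph1, the lowest by mean TPM. Capitals mark TATAA, the core of the TATA box, on the strand of the gene. The stretches are chr7:141279134-141279183 for Sct, chr6:113719912-113719961 for Ghrl, chr11:102107833-102107882 for Pyy, chr2:62483654-62483703 for Gcg and chr7:46667378-46667427 for Tph1, each on the minus strand.
Sct: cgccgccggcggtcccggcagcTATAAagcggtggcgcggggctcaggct
Ghrl: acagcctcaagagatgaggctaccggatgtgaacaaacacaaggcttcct
Pyy: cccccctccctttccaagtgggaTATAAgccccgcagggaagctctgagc
Gcg: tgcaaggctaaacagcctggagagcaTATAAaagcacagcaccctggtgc
Tph1: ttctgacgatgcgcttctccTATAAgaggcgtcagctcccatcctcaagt
The letters TATAA, searched 40 to 15 bases before the start on the strand of the gene, were found in 6 of 10 members (Sct, Pyy, Gcg, Gip, Gast and Tph1), 24 to 30 bases before the start. They stood in the same window of 3.56% of 32851 RefSeq promoters. On either strand the count was again 6 members, against 4.44% of promoters. Ghrl, Cck, Sst and Nts had no such match. For Sst, Nts and Ghrl the RefSeq start lies 114, 68 and 31 bases from the start of the GENCODE transcript, so a different window would be searched from the latter. The letters CANNTG, the general form of the E-box that factors such as Neurog3 and Neurod1 bind, stood in the 250 bases before the start of 9 members (all but Tph1) and of 66.2% of all promoters, on both strands alike because the pattern is its own reverse complement. The 6 members with TATAA include the highest (Sct) and the lowest (Tph1) by mean TPM.

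Hormone transcripts were readily measured at E15.5. Of the 10 genes, 9 reached 1 TPM in both libraries, where 34.6% of all Ensembl genes did. Their values summed to 467 TPM in replicate 1 and 379 TPM in replicate 2 (423 ± 62.0, SD, n = 2). The order by mean level was Sct, Ghrl, Pyy, Gcg, Cck, Sst, Gip, Nts, Gast and Tph1. Gip and Gast lie on the plus strand and the other 8 on the minus strand. The first 4 took 88.3% of the sum in replicate 1 and 87.2% in replicate 2, and the last 4 took 1.92% and 2.66%.

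**Figure D1:**
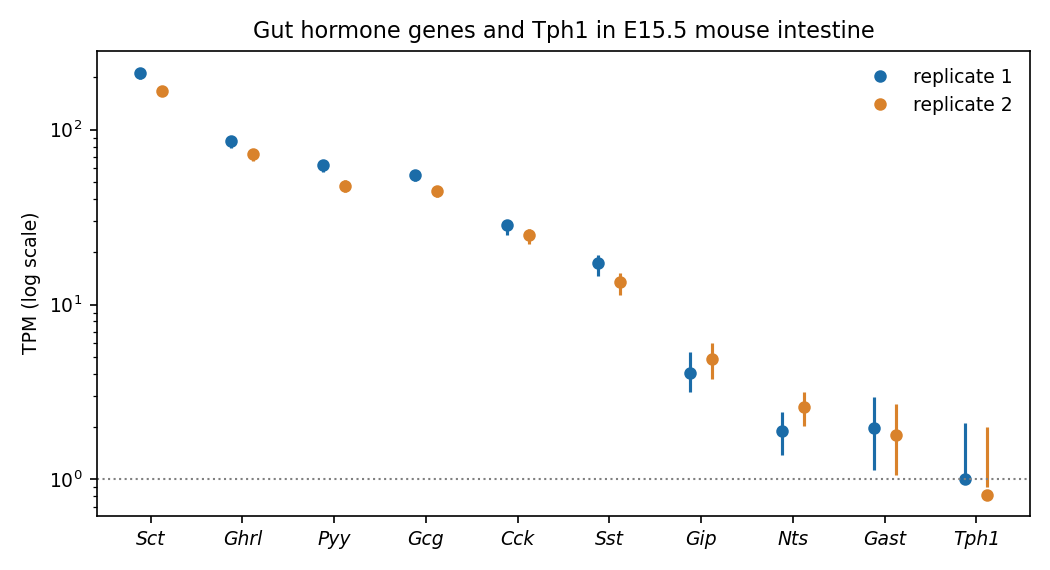
Level of each gene in TPM on a log scale in replicate 1 (blue) and replicate 2 (orange); bars are the deposited credibility bounds and the dotted line is 1 TPM. Sct lies highest at 210 and 166 TPM, 6 genes lie above 10 TPM in both libraries, and the points of Tph1 fall at or under the lower ends of their own bars.

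Among hormones of the upper small intestine, Sct was the highest gene of the list. Secretin, its product, is released by S cells of the duodenum and calls out bicarbonate from the pancreas. Sct (ENSMUSG00000038580.8, chr7:141278330-141279133) had 209.6 TPM in replicate 1 and 166 TPM in replicate 2, from 1986 and 1833 counts, a mean of 188 ± 30.8 TPM (SD, n = 2). It alone gave 44.9% and 43.7% of the summed hormone level. Of all genes detected in both libraries, 94.2% had a lower mean level than Sct. Its range did not touch that of Ghrl, the next gene, and it stood 2.44-fold and 2.29-fold above it.

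Cck encodes cholecystokinin, the I-cell hormone that contracts the gallbladder and drives pancreatic enzyme secretion. It had 28.4 TPM in replicate 1 and 24.9 TPM in replicate 2 (399 and 408 counts, 26.7 ± 2.45 TPM, ENSMUSG00000032532.6, chr9:121489824-121495694). Gast, which encodes gastrin, the acid-stimulating hormone made mainly by G cells of the stomach, had 1.97 and 1.79 TPM from only 17 and 18 counts (1.88 ± 0.127 TPM, ENSMUSG00000017165.1, chr11:100334407-100336996). Cck exceeded Gast 14.4-fold in replicate 1 and 13.9-fold in replicate 2. A link between the coding stretches shown above and these levels was not tested.

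Gip, the gene of glucose-dependent insulinotropic polypeptide, the K-cell incretin, was low at this stage. It had 4.08 TPM in replicate 1 and 4.87 TPM in replicate 2 (54 and 70 counts, 4.48 ± 0.559 TPM, ENSMUSG00000014351.8, chr11:96024545-96030831). Gcg, which yields the other incretin, exceeded it 13.4-fold and 9.13-fold. Sct exceeded Gip 51.4-fold and 34.1-fold.

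Ghrl encodes ghrelin, the appetite-stimulating hormone of the stomach and upper gut, also made by a cell type of the fetal islet. It had 86.0 TPM in replicate 1 and 72.6 TPM in replicate 2 (882 and 867 counts, 79.3 ± 9.48 TPM, ENSMUSG00000064177.6, chr6:113716119-113719880), the second level of the list. On the opposite strand its span overlaps Gm26982 by 3 bases and the unclassified transcript Gm44033 by 695 bases. Of the 31-base words of its transcripts in GENCODE M21, 12.05% occur in transcripts of other genes, Gm44033 among them. The tables hold a single Ghrl transcript of 527 bases, for which shared words were not counted apart. Gm44033 was not in the tables analysed here. No source used here says whether counting used strand. Without it, reads from any stretch that Ghrl shares with this opposite-strand transcript cannot be told apart. Gm26982 itself had 1.23 and 1.29 TPM.

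Pyy and Gcg are the classical genes of the L cell, which is most frequent in the lower gut. Peptide YY slows gastric emptying and gut transit, and proglucagon is cut in L cells to the glucagon-like peptides GLP-1 and GLP-2. Pyy had 62.3 TPM in replicate 1 and 47.9 TPM in replicate 2 (679 and 608 counts, 55.1 ± 10.2 TPM, ENSMUSG00000017311.11, chr11:102106676-102107832). Gcg had 54.7 TPM in replicate 1 and 44.5 TPM in replicate 2 (1257 and 1195 counts, 49.6 ± 7.23 TPM, ENSMUSG00000000394.11, chr2:62474530-62483650). The ranges of Pyy and Gcg over the libraries overlapped, so their order is not settled by these data, although Pyy was the higher within each library. Gcg gathered more counts than Pyy, on longer transcripts. Sct exceeded Gcg 3.83-fold and 3.73-fold.

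Nts encodes neurotensin, the hormone of ileal N cells and a transmitter of neurons. It had 1.90 TPM in replicate 1 and 2.60 TPM in replicate 2 (49 and 78 counts, 2.25 ± 0.495 TPM, ENSMUSG00000019890.3, chr10:102481756-102490486), near the low end of the list. The ranges of Nts and Gast overlapped, and Gast was the higher of the pair in replicate 1. Of the 9 neighbour pairs in the order, only Pyy with Gcg and Nts with Gast had overlapping ranges of the 2 TPM values. The deposited credibility bounds also overlapped for Gast (1.13 to 2.96 and 1.07 to 2.69 TPM) and Tph1 (1.04 to 2.09 and 0.904 to 2.00 TPM). The order of Gast and Tph1 is therefore not settled either.

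Sst encodes somatostatin, the inhibitor of most other gut hormones, made by D cells, enteric neurons and islet delta cells. It had 17.2 TPM in replicate 1 and 13.5 TPM in replicate 2 (206 and 188 counts, 15.3 ± 2.63 TPM, ENSMUSG00000004366.3, chr16:23889573-23890958). About the middle of all detected genes, 49.7% of which lay lower, it stood between Cck and Gip.

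Tph1, the rate-limiting enzyme of serotonin synthesis in enterochromaffin cells, was the lowest gene by mean TPM. It had 1.00 TPM in replicate 1 and 0.82 TPM in replicate 2 (40 and 38 counts, 0.910 ± 0.127 TPM, ENSMUSG00000040046.9, chr7:46644641-46672537) and missed the limit of 1 TPM in replicate 2. The deposited posterior mean values were higher, 1.55 and 1.41 TPM. The deposited credibility bounds, of no stated level, ran over 1.04 to 2.09 TPM and 0.904 to 2.00 TPM, so the main estimate lay under the lower bound in both libraries. Sct exceeded Tph1 209.6-fold in replicate 1 and 202-fold in replicate 2, but 132-fold and 115-fold by the posterior mean.

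The libraries differed in the level of these hormones by less than 1.5-fold for every member. Of the 9 detected members, 7 were higher in replicate 1, where 44.5% of all detected genes were. The median log2 ratio of replicate 1 to replicate 2 was 0.27 over the 10 members and -0.02 over all detected genes. An exact 95% interval was computed from the counts and scaled to the ratio of TPM values. It covers counting error only, and reads without molecular identifiers are not independent molecules. For 5 members it lay above 1, against 17.6% of detected genes. These were Sct (ratio 1.26, interval 1.18 to 1.35), Ghrl (1.18, 1.08 to 1.30), Pyy (1.30, 1.17 to 1.45), Gcg (1.23, 1.14 to 1.33) and Sst (1.28, 1.04 to 1.56). The interval lay below 1 for 0 members and for 26.2% of detected genes, and 3.9% of detected genes were over 1.5-fold apart.

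The other 5 members had intervals that hold 1. Cck had a ratio of 1.14 (0.990 to 1.31), Gast 1.101 (0.533 to 2.26) and Tph1 1.22 (0.762 to 1.95). Gip and Nts went the other way, with ratios of 0.838 (0.576 to 1.21) and 0.731 (0.5005 to 1.06). The TPM ratio of Gip also carries a difference in effective transcript length, 553 bases in replicate 1 and 515 in replicate 2. From counts scaled by TMM, which leaves length out, its log2 ratio was -0.14, against -0.26 by TPM. With 17 to 78 counts a library, Gast, Tph1, Gip and Nts had intervals too wide to show a difference of the size seen for Sct. Since 2 libraries form 1 group, no test of a difference was possible, and these intervals say nothing about variation between embryos.

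The size of these ratios depends on the scaling. Relative to the spike-ins, RNAs of known sequence added to each library, the median of all detected genes was -0.29 and that of the members -0.0017 on the log2 scale. The distance of the members above the median gene was 0.29 on both scales, by TPM and by spike-ins. Spike-in scaling moves the counts of all genes alike, so this distance could hardly change. Detected genes under 500 bases and of 500 to 700 bases, the classes that hold 7 of the 10 members, had median log2 ratios of 0.0028 and -0.0012. Their lower and upper quartiles were -0.27 and 0.35, and -0.18 and 0.18. The part of transcript length in the ratios of the members was not tested.

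**Figure D2:**
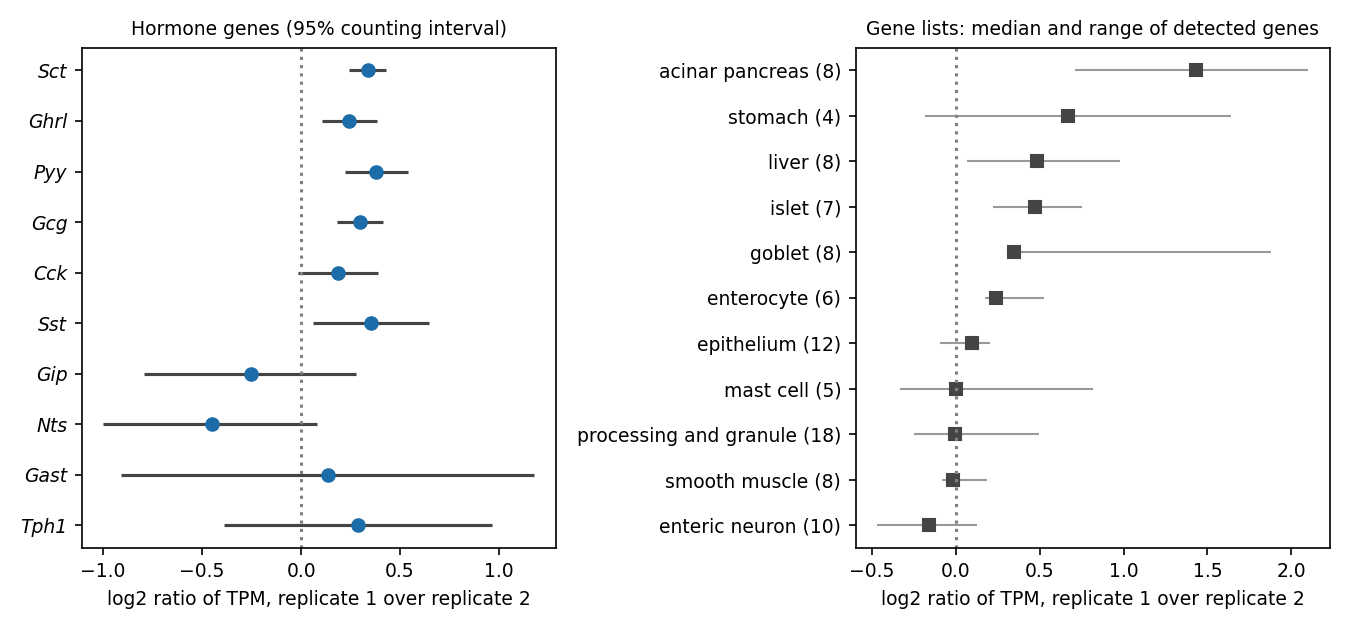
Left, log2 ratio of TPM, replicate 1 over replicate 2, for each hormone gene with its exact 95% counting interval; right, the median (square) and range (line) of that ratio over the detected genes of each marker list, with the number of genes. Sct, Ghrl, Pyy, Gcg and Sst lie wholly right of 0, and the acinar pancreas list lies farthest right at a median of 1.43.

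Islet and acinar pancreas markers were higher in replicate 1 as well. The 7 detected islet genes of 10 listed were all higher in replicate 1, where 44.5% of all detected genes were, at a median log2 ratio of 0.47. Ins2, an insulin gene, had 383 and 228 TPM, Iapp 63.3 and 45.3 TPM and Ins1 49.7 and 35.5 TPM, while Mafa, a factor of mature beta cells, was at 0 and 0.04 TPM. As a share of Ins2, Gcg came to 14.3% and 19.5%, Ghrl to 22.4% and 31.9%, and Sst to 4.49% and 5.92%, so Ins2 differed more between the libraries than these hormones. Ppy, the pancreatic sister gene of Pyy, had 5.13 and 3.79 TPM. The 8 detected acinar genes of 9 listed had a median of 1.43, and the summed list was 2.86-fold higher in replicate 1. The part of pancreatic RNA in the levels and ratios of Gcg, Sst, Ghrl and Pyy was not tested.

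Epithelial lineages also leaned to replicate 1. The 8 goblet cell genes had a median log2 ratio of 0.35, the 6 enterocyte genes 0.24 and the 12 general epithelial genes 0.10, and the summed epithelial list was 1.05-fold higher. The 8 liver genes had a median of 0.49. Smooth muscle genes (median -0.02) and the 10 enteric neuron genes (-0.16, 318 and 349 TPM in sum, led by Uchl1 and Stmn2) did not lean that way. Where 34.6% of all Ensembl genes were detected, 4 of 12 on the stomach list were (21.2 and 15.4 TPM in sum, median 0.67). Tff1 led at 6.83 and 7.75 TPM. Tff2 had 6.45 and 2.07 TPM (ratio 3.12) and Cldn18 4.03 and 2.01 TPM (ratio 2.005). Atp4a, the catalytic subunit of the parietal cell pump, had 1.36 and 1.08 TPM, while Atp4b, its other subunit, had 0.07 and 0.06 TPM. Of the mast cell list, 5 of 9 were detected (25.5 and 28.5 TPM, median 0), of which Kit, which pacemaker cells of the gut muscle also use, gave 14.5 and 18.0 TPM. Cpa3, a mast cell protease, had 3.25 and 4.09 TPM, and Tpsab1 was at 0 and 0.07 TPM. The part of gastric, neuronal and mast cell RNA in Gast, Ghrl, Cck, Sst, Nts and Tph1 was not tested.

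Which annotated transcripts carried the hormones could be read for the 5 members with more than 1 in the tables. Sct was mostly Sct-202, with 92.1% in replicate 1 and 91.6% in replicate 2, and Sct-201 took 7.91% and 8.41%. Gcg was mostly Gcg-201 (93.0% and 93.8%), and Gcg-202 took 6.44% and 5.73%. Pyy was split between Pyy-201 (78.9% and 80.8%) and Pyy-204 (18.5% and 17.9%), whose starts lie within 10 bases of each other in the annotation.

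Shares of the low members could not be resolved. Gip was assigned wholly to Gip-202 in replicate 1 (100%), while in replicate 2 Gip-201 took 84.5% and Gip-202 15.5%. By the posterior mean, Gip-201 took 22.8% and 74.0%. The deposited bounds for Gip-201, 2.1e-05 to 2.27 TPM in replicate 1 and 1.57 to 5.41 TPM in replicate 2, overlapped. Tph1 was assigned wholly to Tph1-202 in both libraries, but the posterior mean spread it over 8 transcripts and left 50.5% and 40.6% on Tph1-202. Cck, Ghrl, Sst, Nts and Gast had a single transcript in the tables.

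**Figure D3:**
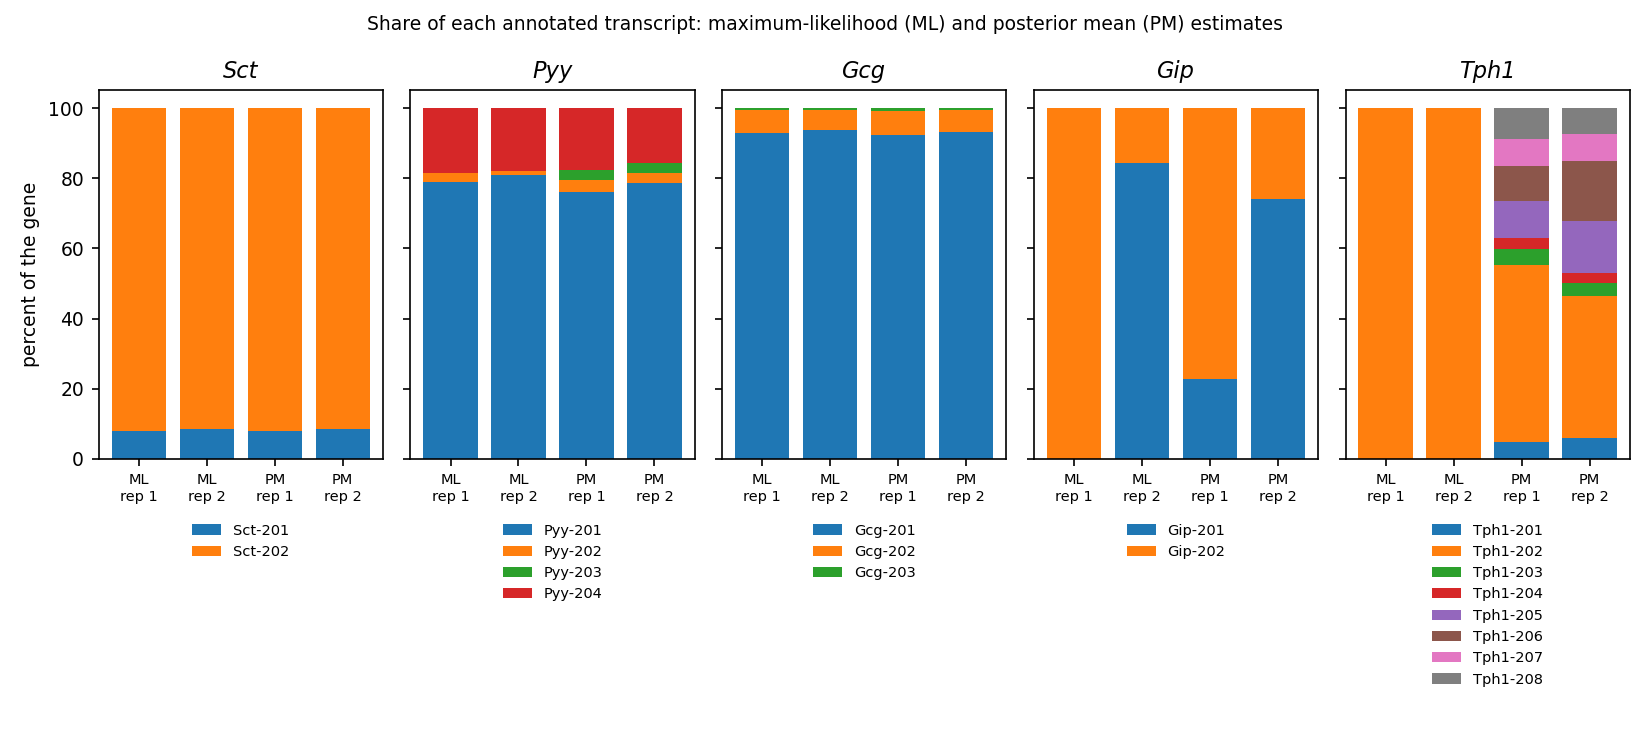
Percent of each gene on each annotated transcript, stacked, for the 5 genes with several transcripts, by maximum-likelihood (ML) and posterior mean (PM) estimates in each replicate. Sct, Pyy and Gcg show alike stacks in all 4 bars, whereas Gip changes its main transcript between replicates and Tph1 changes between the estimates.

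Genes that process and store peptide hormones were nearly all present. Of 19 listed, 18 were detected, where 34.6% of all Ensembl genes were, noncoding ones included. As the lists were chosen with earlier results of these data known, this contrast is a description only. The list had 469 and 488 TPM in sum and a median log2 ratio of -0.01. Only Vgf, a granule protein, lay below 1 TPM in both libraries (0.54 and 0.72 TPM). Several of these genes also serve neurons and islet cells, and the part of such cells in their levels was not tested. Pcsk1, the convertase that frees GLP-1 from proglucagon in L cells, had 4.00 and 3.94 TPM, and Pcsk2, which frees glucagon in alpha cells, had 1.79 and 1.27 TPM. Scg5, the chaperone of Pcsk2, had 11.3 and 11.2 TPM. Cpe, the carboxypeptidase that trims the cut ends, was the highest at 146 and 150.1 TPM, and Pam, which amidates peptides such as those of Cck, Gast and Pyy, had 43.5 and 50.9 TPM.

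Among granule proteins, the chromogranins stood at levels like those of Cck and Gcg. Chga (chromogranin A) had 22.5 and 21.3 TPM and Chgb 37.5 and 44.5 TPM, and Gcg stood at 243% and 209% of Chga. Scgn, a calcium sensor of endocrine cells, had 7.34 and 6.30 TPM. Tpst1 and Tpst2, which add the sulphate that cholecystokinin needs for its receptor on the gallbladder, had 44.4 and 50.1 TPM and 36.9 and 36.1 TPM. Mboat4, the acyltransferase that activates ghrelin, had 1.03 and 1.17 TPM, far under Ghrl. Dpp4, the peptidase that inactivates GLP-1 and GIP, had 59.5 and 57.4 TPM, above Gcg in replicate 1 and in replicate 2.

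Most other listed genes of the serotonin pathway were detected, although Tph1 itself missed the limit. Of 12 listed genes, 11 were detected, where 34.6% of all Ensembl genes were (721 and 673 TPM in sum, median log2 ratio 0.09). Tph2, the neuronal form of the enzyme, was at 0 and 0.01 TPM. The sum was led by genes of cofactor recycling and amine breakdown, so it does not measure serotonin synthesis. Ddc, the decarboxylase of the next step, had 43.5 and 39.1 TPM. Slc18a1, the vesicle transporter of enterochromaffin cells, had 7.22 and 6.31 TPM, Slc6a4, which takes serotonin back up, 15.5 and 14.5 TPM, and Maob, which breaks down amines, 96.8 and 83.3 TPM. Qdpr and Pcbd1, which recycle the cofactor of the hydroxylase, were the highest at 204 and 199 TPM and at 188 and 168 TPM.

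Receptors for the hormones were read in the same tissue. Of 20 listed, 7 were detected, a share near the 34.6% of all Ensembl genes, while 10 lay below 1 TPM in both libraries and 3 reached it in a single library, with 72.6 and 51.2 TPM in sum and a median log2 ratio of 0.06 over those detected. Cckar, the receptor for cholecystokinin on gallbladder muscle and mouse acinar cells, was the highest at 47.0 and 26.2 TPM, a ratio of 1.80 (interval 1.70 to 1.90) in the direction of the acinar list. The part of acinar RNA in this level was not tested. Cckbr, the receptor of gastrin, had 0.21 and 0.06 TPM.

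Among the remaining receptors, Glp2r, which binds GLP-2, had 3.47 and 3.32 TPM and Gipr 1.58 and 1.67 TPM, against 0.33 and 0.18 TPM for Glp1r. Neurotensin receptors were represented by Sort1 (9.65 and 9.53 TPM), a sorting receptor of wider use, and Ntsr1 (2.03 and 2.37 TPM). Sstr4 led the somatostatin receptors at 2.02 and 1.84 TPM, and Npy1r, which binds peptide YY, had 1.25 and 1.05 TPM. Sctr, the secretin receptor, had 0.59 and 0.76 TPM although Sct was the highest hormone gene. Ghsr, the ghrelin receptor, was at 0.02 and 0 TPM, and Npy5r at 0 in both libraries, where a count of 0 allows up to 0.0565 and 0.0485 TPM (3 counts).

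**Figure D4:**
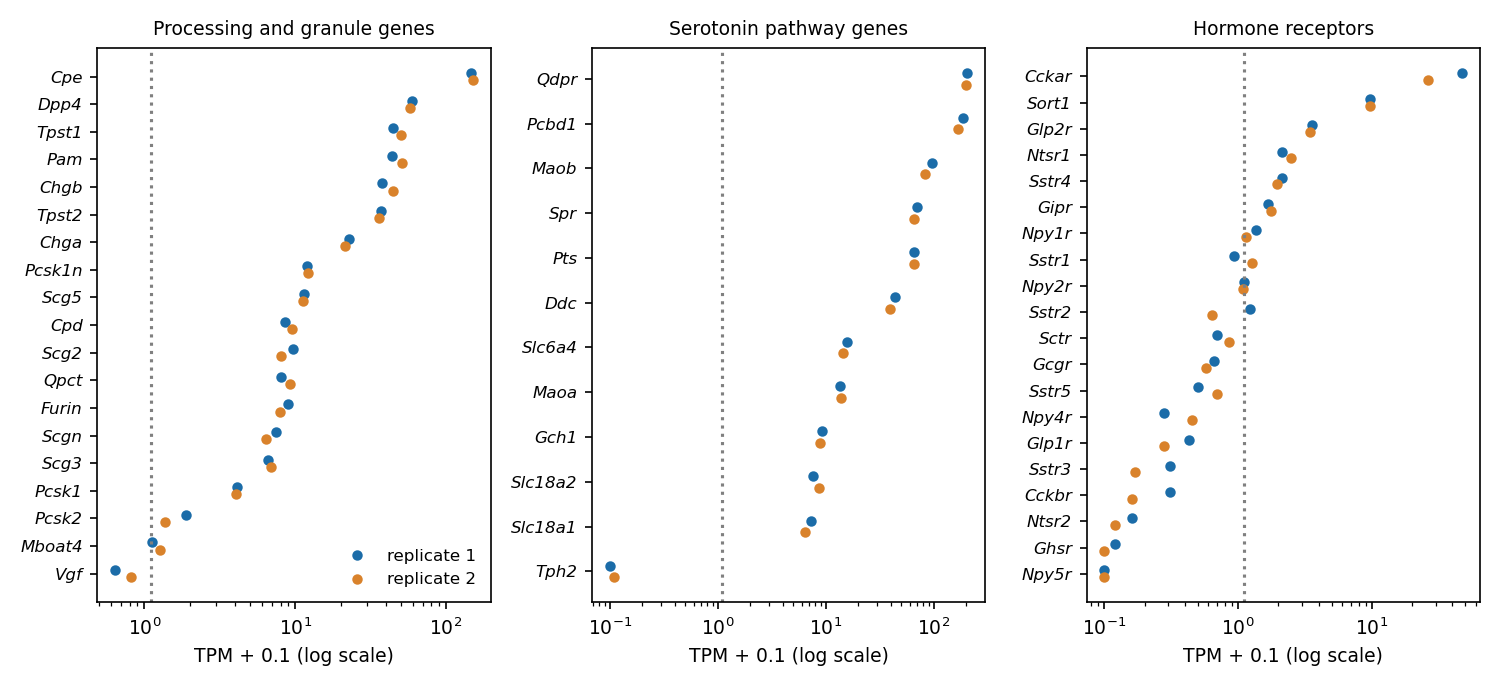
TPM plus 0.1 on a log scale in replicate 1 (blue) and replicate 2 (orange) for processing and granule genes, serotonin genes and hormone receptors; the dotted line marks 1 TPM. Most processing genes lie right of the line and most receptors left of it, with Cckar alone above 20 TPM among receptors.

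Transcription factors of the enteroendocrine lineage were present at lower levels. Of 21 listed, 18 were detected, where 34.6% of all Ensembl genes were (113 and 128 TPM in sum, median log2 ratio -0.09). Neurog3, which starts the lineage, had 9.52 and 9.25 TPM, and Isl1 had 8.01 and 9.39 TPM. Sox4 (26.5 and 31.9 TPM), Etv1, Hhex and Foxa1 were the others among the 6 highest, genes that many other cells use as well. Insm1, a factor of endocrine differentiation, stayed just below the limit at 0.90 and 0.96 TPM, and Lmx1a, known from mouse for Tph1 expression in enterochromaffin cells, had 0.35 and 0.36 TPM.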

How the data were processed

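Per the file headers, the authors deposited expected counts, TPM and FPKM per gene and transcript, with posterior mean TPM, interval bounds and count SDs (treated as scores, level not stated), lengths, and the percent of each gene on each transcript. The readme names mm10 and GENCODE M4; no source used here gives the quantifier or strand setting. Per the labels' protocols, 10 ng of RNA over 200 nucleotides with spike-ins entered each library. Spike-ins took 2.16% and 1.76% of counts.

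Symbols and positions came from GENCODE M21 (GRCm38), promoters from RefSeq. Members and the 16 other gene lists (196 genes) were chosen with earlier results of these data known. Named genes were the members, the highest 6 of each list, the lowest 6 of those below 1 TPM, and genes over 2-fold apart at a mean of 1 TPM or more, with processing, receptor and serotonin lists open in full. A gene was detected at 1 TPM or more in both libraries. Shares of all Ensembl genes cover genes of every type, noncoding ones included, so they are not shares of protein-coding genes. Ratios used TPM with no pseudocount. Exact intervals (scipy 1.17.1, 95%) took the counts of both libraries and were scaled to the TPM ratio. Effective length was the length minus 99 bases, which raises the TPM of short transcripts. TMM from edgeR 4.0.16 and size factors from DESeq2 1.42.0 (R 4.3.3), on expected counts rounded to whole numbers, served as alternative scalings only. Ratio and interval code was tested on simulated data.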

Additional observations from a re-analysis of the deposited data

How the results depend on the processing

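The design has 1 group of 2 libraries, so no result has a test. No paired analysis was possible because the libraries form 1 group with no second group to pair. Scaled to the spike-ins, the median log2 ratio of the members turned to -0.0017 and that of Ghrl to -0.026, from 0.27 and 0.24 by TPM. Spike-ins move the counts of all genes alike but leave length out. Gip, whose effective length differed between the libraries, went from -0.26 to -0.42. Relative to the epithelial markers the median was 0.17, and under the other alternatives it lay between 0.21 and 0.29 (alternatives relative to all detected genes and to genes of like length were chosen after seeing the data). Ranked by counts not divided by length, 7 members changed place. Without each replicate in turn, 0 to 2 members changed place, a check also chosen after seeing the data, and the summed level was 379 and 467 TPM. The number of detected members was 6 at 5 TPM and 10 at 0.5 TPM or by posterior mean TPM. By posterior mean TPM, Tph1 averaged 1.48 TPM. The lowest members rest on few counts, which limits their order and their transcript shares.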

Other observations

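Other regulatory peptides were present beside the hormones. Of 17 listed, 11 were detected, against 34.6% of all Ensembl genes, with a median log2 ratio of -0.17 between replicate 1 and replicate 2. Guca2a and Guca2b, the guanylin genes of epithelial cells, led at 192 and 147 TPM and at 50.5 and 31.4 TPM, Guca2a under Sct in each library. Peptides of enteric neurons followed, with Penk at 29.6 and 27.7 TPM, Npy at 13.8 and 20.9 TPM, Vip at 15.4 and 17.4 TPM and Gal at 14.7 and 14.3 TPM. Insl5, the hormone of distal L cells, had 1.47 and 0.54 TPM, a ratio of 2.72 with a counting interval of 1.20 to 6.75. Nmu, Ucn3, Pdyn and Grp lay below 1 TPM in both libraries.

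Nutrient sensors of enteroendocrine cells were represented in part. Of 15 listed, 7 were detected, against 34.6% of all Ensembl genes, with a median log2 ratio of 0.23. Slc5a1, the glucose transporter that absorptive cells use as well, had 51.4 and 43.6 TPM, and the fatty acid receptors Ffar2 and Ffar4 had 12.8 and 9.09 TPM and 5.87 and 7.59 TPM. Gpbar1, the bile acid receptor, had 2.61 and 2.79 TPM. Gpr119, Casr and Gprc6a, receptors for lipids, calcium and amino acids, had 0.40 TPM or less in each library.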
